A study of Mus musculus with 3 samples.

Results

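Krt5, Krt14, Krt15 and Trp63 are the basal lineage genes of a spatial RNA panel that was imaged in 3 mouse mammary tumours, and the 4 were taken by name from the 258 genes whose counts are tabulated. In the normal mammary gland the duct has an inner luminal layer and an outer basal layer that touches the basement membrane. Basal cells carry filaments of the type II keratin Krt5 paired with the type I keratin Krt14. Krt15 is another type I keratin of basal cells in stratified epithelia, and Trp63 encodes p63, a transcription factor of the p53 family needed for basal and stratified epithelia.

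RefSeq promoter sequences were at hand for the keratin pair alone, 2 of the 4 genes, and are shown because this pair was present together in more cells than any other pair of members. Each runs from 250 bases before to 50 bases after the gene's start and is written 5′ to 3′ on the minus strand of GRCm38.p6. The Krt5 window lies at chr15:101712856-101713155 and the Krt14 window at chr11:100205981-100206280.
Krt5: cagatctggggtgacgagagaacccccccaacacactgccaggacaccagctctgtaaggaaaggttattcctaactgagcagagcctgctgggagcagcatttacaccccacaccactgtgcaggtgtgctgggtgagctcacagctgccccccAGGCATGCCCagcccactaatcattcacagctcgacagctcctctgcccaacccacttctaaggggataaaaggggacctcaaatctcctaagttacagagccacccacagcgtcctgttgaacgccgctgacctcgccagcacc
Krt14: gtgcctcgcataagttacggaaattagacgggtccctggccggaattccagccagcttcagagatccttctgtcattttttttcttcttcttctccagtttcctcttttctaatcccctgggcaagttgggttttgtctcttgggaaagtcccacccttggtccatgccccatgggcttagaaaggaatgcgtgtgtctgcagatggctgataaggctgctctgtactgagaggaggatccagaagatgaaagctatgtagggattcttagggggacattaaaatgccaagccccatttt
The capitals mark a half-site of the p53 family of transcription factors, the family of the Trp63 product, at positions 156 to 165 of the Krt5 window. No such half-site was found in the Krt14 window on either strand. Half-sites were present in 8.36% of 32851 RefSeq promoter windows of the same length. The motifs TATAAA and TGANTCA were found in neither window on either strand, and they were present in 13.6% and 7.81% of all windows. Such matches describe letters in a window and say nothing on binding.

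The tumours came from MMTV-PyMT mice, in which a mouse mammary tumour virus promoter drives the polyoma middle T oncogene in mammary epithelium. All 3 carry the label WT, whose meaning is not given, and all were untreated, formalin-fixed and paraffin-embedded. The design text calls them distinct tumours, and the labels do not say how many animals they came from. There is no normal gland or other control group, so comparisons were made between cells of the same tumours, with the tumour as the replicate (n = 3). Molecules were counted in each cell by MERFISH, an imaging method that reads barcoded probes over rounds of hybridisation. After removal of cells with under 20 panel transcripts or outlying volume, 619770, 453995 and 673638 cells remained in tumours 1, 2 and 3, with medians of 98, 106 and 94 panel transcripts. Blank codes, 27 barcodes that stand for no gene, gave the level of false reads. They made up 0.503%, 0.481% and 0.496% of panel and blank counts together, over all deposited cells.

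Krt5 gave the most transcripts of the members in every tumour, and Krt14 the next most. Krt5 stood at 7.94, 3.39 and 4.50 transcripts per 1000 panel transcripts in tumours 1, 2 and 3. Krt14 stood at 2.03, 1.62 and 1.37. Trp63 stood at 1.14, 1.46 and 0.793. Tumour 1 was highest for both keratins of the pair, and tumour 2 was highest for Trp63. Krt15 stood at 0.834, 0.255 and 0.824. The highest blank code in each section reached 0.476, 0.417 and 0.407 on the same scale, so Krt15 lay below it in tumour 2 and the other values of the members lay above it. These levels are counts of detected molecules with gene-specific probes, and their order between genes is an order of detections, not of RNA abundance.

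Cells were clustered on the other panel genes, so that the members did not shape the clusters, and 14 clusters were sorted into classes by marker genes. Epithelial-like clusters held 85.3%, 86.8% and 91.7% of cells, and fibroblast-like cells made up 5.72%, 7.12% and 4.43%. Skin keratinocyte markers were not on the panel, so skin could not be checked as a source. One cluster within the epithelial-like set stood apart. Its leading genes were Lama3, the alpha chain of the epithelial basement membrane laminin, the Notch ligand Jag2, and Snai2, a transcription factor of epithelial-mesenchymal transition. It entered the epithelial-like set through Krt17, Wnt7b and Slpi, yet its 10 leading genes held 2 fibroblast markers, Postn and Sparc, 1 contractile marker, Mylk, and 0 epithelial markers. It is called the Lama3- and Jag2-led cluster. The tests between positive and negative cells and between near and far cells are given with and without it. So are the co-occurrence, the series by Krt5 count and the neighbour ratios. For the tests between classes, the numbers of calls with the cluster set apart are given.

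The basal genes were highest in the Lama3- and Jag2-led cluster. There Krt5 stood at 39.5, 21.0 and 34.2 transcripts per 1000 in tumours 1, 2 and 3, against 4.83, 1.78 and 2.74 in the other epithelial-like cells. Krt14 stood at 8.83, 9.21 and 5.73 in that cluster and at 1.39, 1.02 and 1.15 in the other epithelial-like cells. Trp63 stood at 2.58, 3.50 and 2.09 against 1.05, 1.35 and 0.732. The 2 sets of values did not overlap for any of these genes. Krt15 stood at 2.96, 0.919 and 3.79 in the cluster and at 0.615, 0.182 and 0.648 in the other epithelial-like cells, again without overlap.
Since the cluster was singled out after its levels had been seen, no test is given. The cluster held 8.24%, 7.91% and 6.51% of cells but 44.1%, 46.6% and 40.4% of all Krt5 transcripts. Its share of Trp63 transcripts was 20%, 18.1% and 14%, while the other epithelial-like cells held 70.1%, 74.5% and 80.8%.
Fibroblast markers moved with it. The 10 fibroblast markers on the panel summed to between 142 and 149 transcripts per 1000 in this cluster, against 27.9 to 35.4 in the other epithelial-like cells and 492 to 557 in fibroblast-like cells. Of its cells, 72.5%, 66.8% and 59.9% lay within 25 µm of a fibroblast-like cell. Transcripts near a cell border can be given to the neighbouring cell, and the part of this in the result was not tested.

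**Figure D1:**
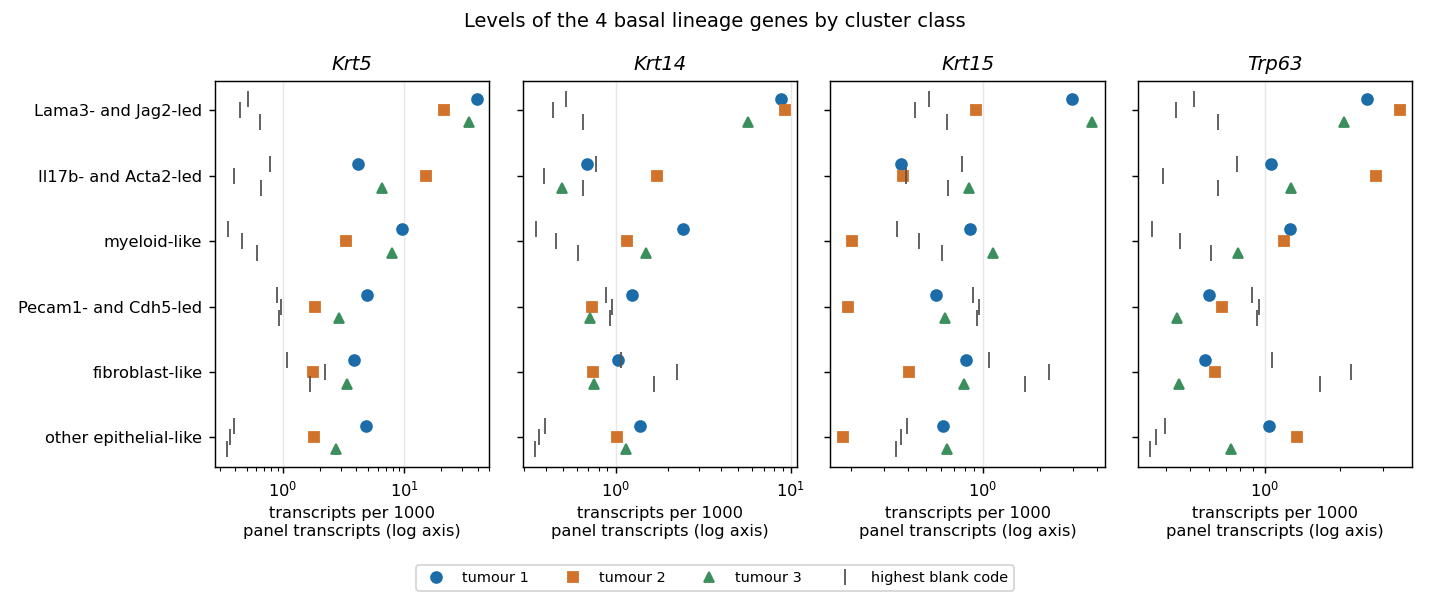
Levels of Krt5, Krt14, Krt15 and Trp63 in transcripts per 1000 panel transcripts (log axis) for 6 cell classes, with 1 point per tumour and a tick for the highest blank code of that class and tumour. In each tumour all 4 members lie furthest right in the Lama3- and Jag2-led cluster, where Krt5 reaches 39.5, 21.0 and 34.2, while Krt14, Krt15 and Trp63 in fibroblast-like cells lie left of the highest blank.

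Outside the epithelial-like set, the members gave no uniform pattern. Fibroblast-like cells held 1.03, 0.746 and 0.751 Krt14 transcripts per 1000, below their highest blank codes of 1.07, 2.23 and 1.67, and Krt15 and Trp63 were below those blanks too. Il17b- and Acta2-led cells, whose contractile genes are those of myoepithelial cells, stood at 4.13, 15.1 and 6.59 for Krt5, with tumour 2 far above the others. Myeloid-like cells, which should lack keratins, stood at 9.53, 3.32 and 7.96 for Krt5, against 8.43, 3.43 and 4.54 in all epithelial-like cells, and in tumours 1 and 3 they were the highest of the 5 classes. Trp63 in Il17b- and Acta2-led cells reached 1.06, 2.79 and 1.27, against 1.21, 1.53 and 0.810 in epithelial-like cells.
In a fit over all classes, Trp63 was 0.63 ± 0.22 higher on the log2 scale (edgeR quasi-likelihood test, adjusted p = 0.0281) in Il17b- and Acta2-led cells, although its level in tumour 1 was lower there, 1 of 4 members, where 51.6% of genes were called in either direction. In Pecam1- and Cdh5-led cells, which carry endothelial markers, Trp63 fell by 0.64 ± 0.22 (adjusted p = 0.0195), 1 of 4 members where 67.4% of genes were called. In fibroblast-like cells, Krt15 was 0.82 ± 0.31 higher (adjusted p = 0.0291), 1 of 4 where 73.6% were called. Its level was higher there in tumour 2 alone, at 0.809, 0.409 and 0.795 in fibroblast-like cells, against 0.858, 0.245 and 0.828 in epithelial-like cells. In myeloid-like cells 0 of 4 members were called by edgeR or DESeq2, 0 at an unadjusted p under 0.05 by edgeR, where 36.8% of genes were called.
Without tumour 1, 4 of the 16 values were called, where 26 to 93 of 258 genes per class were called higher and 36 to 79 lower. Without tumour 3, 0 were called by edgeR, where 42 to 105 genes were called higher and 29 to 77 lower. Without tumour 2 the 3 calls were lost and Krt14 in Il17b- and Acta2-led cells was called lower (-1.39). There 29 to 98 genes were called higher and 22 to 72 lower. Scaling by library size moved the median of all genes in fibroblast-like cells to -0.47, against 0.16 with TMM scaling. It left Krt15 there at 0.20 and Trp63 in Il17b- and Acta2-led cells at 0.50, both not called (adjusted p = 0.572 and 0.0938). With that scaling Trp63 and Krt14 were called lower both in fibroblast-like cells (-1.06 and -1.05) and in Pecam1- and Cdh5-led cells (-1.02 and -0.99). In these 2 classes 131 and 117 of 258 genes were called lower. With TMM scaling and the Lama3- and Jag2-led cluster set apart from the epithelial-like cells, 2 of 4 members were called higher in Il17b- and Acta2-led cells. There 78 of 258 genes were called higher and 69 lower. In fibroblast-like cells 1 was called higher (112 genes higher, 85 lower). In Pecam1- and Cdh5-led cells 1 was called lower (95 higher, 91 lower), and in myeloid-like cells 0 were called (52 higher, 63 lower).

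Within the epithelial-like set, a cell was called positive for a gene at 2 or more transcripts. Krt5-positive cells made up 11.1%, 5.78% and 7.01% of epithelial-like cells in tumours 1, 2 and 3. Krt14-positive cells made up 4.13%, 3.26% and 2.68%, Trp63-positive cells 1.9%, 3.09% and 0.948%, and Krt15-positive cells 1.25%, 0.291% and 1.37%. The blank code with the most positive cells reached 0.203%, 0.237% and 0.156%.
Fibroblast-like and myeloid-like cells should lack these genes. For Krt5, fibroblast-like cells gave 7.02%, 3.22% and 5.63% and myeloid-like cells 12.2%, 5.02% and 8.01%, beside 8.68%, 3.57% and 5.25% in the epithelial-like cells outside the Lama3- and Jag2-led cluster and 33.5%, 27.8% and 30% inside it. The median depths were 102, 86 and 75 panel transcripts in fibroblast-like cells, 74, 78 and 55 in myeloid-like cells, 98, 109 and 98 in the epithelial-like cells outside the cluster, and 104, 101 and 75 inside it. Outside the cluster the share of Krt5-positive cells was thus close to that of fibroblast-like cells in tumours 1 and 2 and below it in tumour 3. It was below that of myeloid-like cells in every tumour. The part of transcripts given to a neighbouring cell in these shares was not tested. The Krt5 level gave the same picture, at 4.83, 1.78 and 2.74 per 1000 outside the cluster and 3.86, 1.78 and 3.37 in fibroblast-like cells. The share of Krt15-positive cells outside the cluster, 0.755%, 0.130% and 0.980%, was below the 1.14% and 0.381% of fibroblast-like cells in tumours 1 and 2 and above the 0.745% in tumour 3, and below the 0.984%, 0.156% and 1.19% of myeloid-like cells in every tumour. For Krt14, the share outside the cluster was 2.43%, 1.72% and 2.02%. It was above the 2.28%, 1.24% and 1.16% of fibroblast-like cells but, in tumour 1, below the 3.77% of myeloid-like cells, which gave 1.60% and 1.43% in tumours 2 and 3. For Trp63, the share outside the cluster was 1.42%, 2.52% and 0.780%, above the 0.679%, 0.641% and 0.262% of fibroblast-like cells and the 1.36%, 1.16% and 0.243% of myeloid-like cells, by little in tumour 1. With each cell thinned to 50 panel transcripts, which left out 83253, 61562 and 120361 shallower epithelial-like cells, Krt5-positive cells made up 6.04%, 2.71% and 4.14% of epithelial-like cells and cells positive for 2 or more members 1.19%, 0.688% and 0.706%.

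Most positive cells carried 1 member. Among epithelial-like cells positive for any member, Krt5 alone accounted for 54.7%, 38.5% and 53.3%, Krt14 alone for 9.92%, 14.2% and 14.9%, and Krt5 with Krt14 for 14.4%, 13.4% and 8.84%. Trp63 alone accounted for 7.40%, 23.8% and 5.79%, with tumour 2 far above the others. All 4 members were present together in 0.562%, 0.470% and 0.442% of positive cells. Over all epithelial-like cells, 3.54%, 2.21% and 1.96% were positive for 2 or more members, and 1.84%, 0.917% and 1.11% were so outside the Lama3- and Jag2-led cluster.
The overlap was not symmetrical. Of Krt14-positive cells, 63.1%, 52.1% and 44.5% were also Krt5-positive, whereas 23.6%, 29.4% and 17.0% of Krt5-positive cells were Krt14-positive. Of Krt15-positive cells, 60.5%, 60.5% and 57.7% were Krt5-positive, close across the 3 tumours. Of Trp63-positive cells, 54.8%, 75.2% and 58.6% carried no other member. In cells positive for both Krt5 and Krt14, the median ratio of Krt5 to Krt14 transcripts was 2.88, 1.67 and 3, and Krt14 was the higher of the pair in 8.30%, 24.2% and 5.75% of them.

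All 6 pairs of members occurred in the same epithelial-like cell more often than their separate frequencies give. The expected number was summed over 20 bins of cell depth within a tumour, since deeper cells show more of every gene. The observed count over the expected one was 4.38, 7.77 and 5.74 for Krt5 with Krt14, 4.21, 9.42 and 7.53 for Krt5 with Krt15, and 2.51, 2.59 and 4.54 for Krt5 with Trp63. As mean log2 ratio ± SD (n = 3), Krt14 with Krt15 gave 3.03 ± 0.69, Krt5 with Krt15 2.74 ± 0.60, Krt15 with Trp63 2.74 ± 0.18, Krt5 with Krt14 2.54 ± 0.41, Krt14 with Trp63 1.88 ± 0.08 and Krt5 with Trp63 1.63 ± 0.48. Neighbours in that order differed by less than the larger of their SDs, apart from the step between Krt5 with Krt14 and Krt14 with Trp63.
A member with a blank code gave 0.16 to 0.51, below every pair of members in every tumour. Pairs of blank codes gave 1.47 ± 0.52, so blank codes too occurred together, at a level that overlapped the Krt5 with Trp63 and Krt14 with Trp63 pairs. With the expectation taken within cluster as well as depth bin, the member pairs gave 0.86 to 1.71, member with blank pairs gave 0.04 to 0.26, and pairs of blank codes gave 1.40 ± 0.53 (SD, n = 3). In tumour 3 the blank pairs were above every pair of members. In tumours 1 and 2, at 1.18 and 1.01, they were above Krt5 with Trp63 and Krt14 with Trp63 and below the other 4 pairs. With the Lama3- and Jag2-led cluster left out, the member pairs gave 1.35 to 2.78 and pairs of blank codes 1.36 ± 0.49, level with Krt5 with Trp63 (1.35) and Krt14 with Trp63 (1.37).

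**Figure D2:**
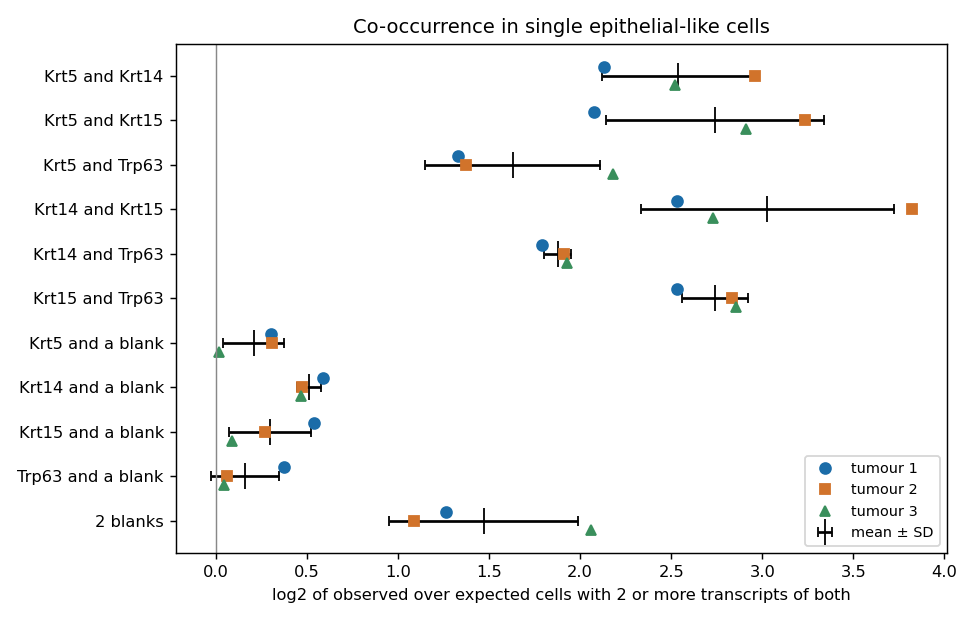
Log2 of the observed over the expected number of epithelial-like cells with 2 or more transcripts of both genes, for 6 member pairs, 4 pairs of a member and a blank code, and pairs of blank codes, with 1 point per tumour and the mean ± SD over 3 tumours. Member pairs average 1.63 to 3.03 and member with blank pairs 0.16 to 0.51, while pairs of blanks average 1.47.

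The other members climbed with the number of Krt5 transcripts in a cell. In cells with 0, 1, 2 to 4, 5 to 9, 10 to 19 and 20 or more Krt5 transcripts, mean Krt14 over the 3 tumours was 0.940, 1.63, 4.12, 10.5, 17.2 and 28.4 transcripts per 1000 panel transcripts other than Krt5. The tumours differed most for Krt15, which at 20 or more Krt5 transcripts stood at 9.79, 3.87 and 16.9, with tumour 2 lowest as it was in the whole section. Trp63 at that count stood at 4.96, 5.70 and 4.63, close across tumours, against 0.946, 1.39 and 0.661 in cells with 0 Krt5. The mean blank code also climbed, to 0.238 ± 0.014 at 20 or more Krt5 transcripts, against 0.175 ± 0.006 in cells with 0 Krt5 (SD, n = 3), a smaller step than that of any member. Outside the Lama3- and Jag2-led cluster, mean Krt14 was 27.9 at 20 or more Krt5 transcripts and 0.831 at 0, Krt15 9.34 and 0.347, and Trp63 4.41 and 0.942.

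**Figure D3:**
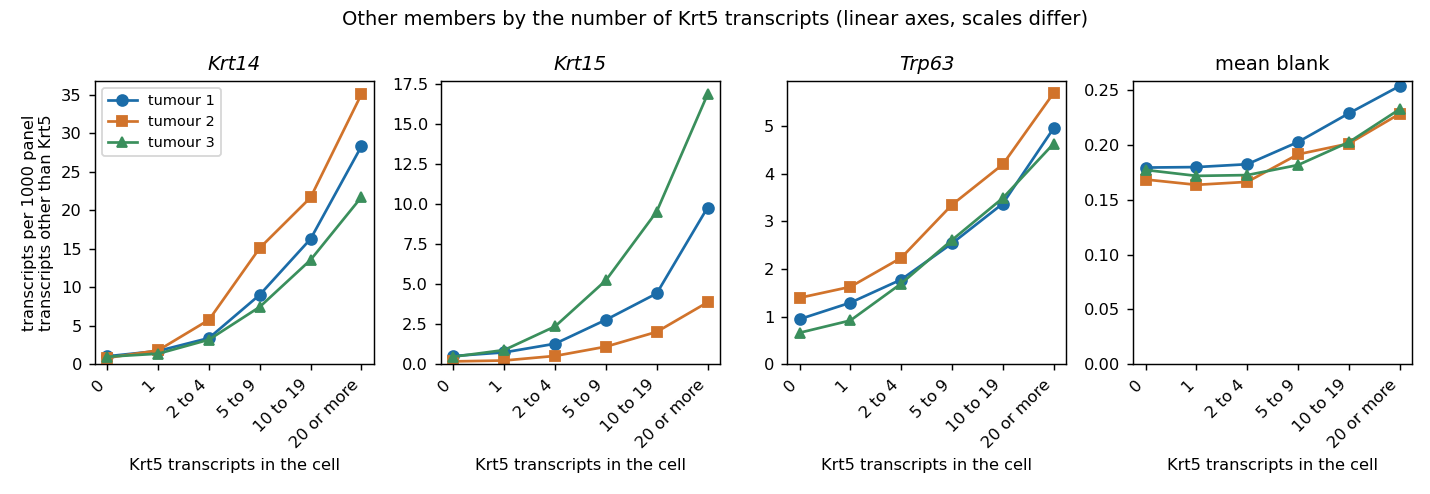
Krt14, Krt15, Trp63 and the mean blank code in transcripts per 1000 panel transcripts other than Krt5 (linear axes with different scales), by the number of Krt5 transcripts in the epithelial-like cell, with 1 line per tumour. Krt14 averages 28.4 at 20 or more Krt5 transcripts and 0.940 at 0, while the mean blank averages 0.238 and 0.175.

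To test the members against each other over tumours, cells positive for 1 member were set against cells with 0 of it, drawn in equal number from the same tumour and depth bin. Raw counts were summed per tumour and arm, the gene that chose the cells was left out, and levels are per 1000 of the remaining panel transcripts. Krt5-positive cells held 8.08, 11 and 6.14 Krt14 transcripts per 1000 in tumours 1, 2 and 3, against 1.0, 0.703 and 1.01 in Krt5-negative cells. Every positive value lay above every negative one. The log2 fold change was 3.10 ± 0.29 for Krt14 (SE), 2.68 ± 0.23 for Krt15 and 1.38 ± 0.19 for Trp63 (edgeR quasi-likelihood test, Benjamini-Hochberg adjusted p = 0.00281, 0.00201 and 0.0169). All 3 other members were called higher, where 6.61% of genes tested were called higher and 1.17% lower.
The call depended on tumour 1. Without it 0 members and 0 genes passed by edgeR, with 35 genes higher and 16 lower at an unadjusted p under 0.05 and adjusted p of 0.153 for Krt14, 0.153 for Krt15 and 0.228 for Trp63, although the log2 fold changes were 3.23, 2.88 and 1.44. Without the Lama3- and Jag2-led cluster, Krt14 was 2.54 ± 0.29 and Krt15 2.23 ± 0.26 higher (adjusted p = 0.0131 for both), and Trp63 was no longer called (1.09 ± 0.21, adjusted p = 0.0904).

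Krt14-positive cells held 60.7, 33.4 and 30.6 Krt5 transcripts per 1000, against 4.05, 1.51 and 1.98 in Krt14-negative cells. The arms were far apart in every tumour, and the log2 fold change of 4.02 ± 0.14 (edgeR, adjusted p = 3.97e-06) was the largest of the 12 between members. Krt15 was 2.63 ± 0.17 and Trp63 1.35 ± 0.15 higher (adjusted p = 1.38e-04 and 0.00128). All 3 were called higher, where 14% of genes were called higher and 14% lower.
Krt15-positive cells were the richest in the other members. They held 71.2, 58.0 and 51.1 Krt5 transcripts per 1000, against 7.24, 3.27 and 2.79 in Krt15-negative cells. Krt5 was 3.90 ± 0.24, Krt14 3.07 ± 0.38 and Trp63 2.04 ± 0.19 higher (adjusted p = 8.62e-05, 0.00221 and 4.11e-04), 3 of 3 called higher, where 6.61% of genes were called higher and 5.84% lower. In tumour 2 the 1146 Krt15-positive cells held 29.1 Krt14 transcripts per 1000, against 10.8 and 6.55 in tumours 1 and 3.
Trp63-positive cells held 35.7, 11.4 and 24.8 Krt5 transcripts per 1000, against 6.42, 2.21 and 3.20 in Trp63-negative cells, with tumour 2 lowest in both arms. Krt5 was 2.61 ± 0.12, Krt15 2.43 ± 0.13 and Krt14 2.14 ± 0.21 higher (adjusted p = 2.42e-04, 2.42e-04 and 0.00341). All 3 were called higher, where 8.95% of genes were called higher and 8.56% lower. Without tumour 3, Krt14 missed the threshold (2.32 ± 0.22, adjusted p = 0.0714).
The 12 values held their direction within clusters. With negative cells drawn from the same cluster and depth bin, they were between 0.94 and 2.90 and all 12 were called. In those 4 comparisons 13 to 33 of 257 genes were called higher and 9 to 25 lower. Without the Lama3- and Jag2-led cluster they were between 0.98 and 3.39 and 11 were called, all but Trp63 in Krt5-positive cells. There 4 to 17 of 257 genes were called higher and 0 to 12 lower. The mean blank code differed little between the arms, at 0.186 ± 0.010 in Krt5-positive and 0.174 ± 0.010 in Krt5-negative cells (SD, n = 3).

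A list of 34 basal and myoepithelial partner genes had 15 on the panel, and their counts were read beside all genes. In Krt5-positive cells 6 were called higher and 0 lower, in Krt14-positive cells 11 and 0, in Krt15-positive cells 6 and 1, and in Trp63-positive cells 8 and 1. The median log2 fold change of the 15 was 0.63, 0.94, 0.87 and 0.66 in that order, against -0.07, -0.02, -0.07 and 0.01 over all genes tested. Over epithelial-like cells, the same median was 1.27 in Pecam1- and Cdh5-led, 1.24 in Il17b- and Acta2-led, 0.71 in fibroblast-like and -0.28 in myeloid-like cells. The medians over all genes there were 0.05, 0.03, 0.16 and -0.10. A rise of this list was thus not particular to cells with the members. Sparc is also on the fibroblast list. Jag2, Lama3, Snai2, Mylk, Sparc and Acta2 were called higher in all 4 comparisons of positive with negative cells. Jag2, Lama3 and Snai2 lead the cluster that was richest in the members. Without that cluster 2, 5, 3 and 4 partners were called higher and 0, 0, 0 and 1 lower, and Jag2 and Lama3 were the partners called higher in all 4 comparisons.
Apart from the members, Jag2 had the largest change of the genes above background in 3 of the 4. Its level was 4.86, 4.6 and 3.17 per 1000 in Krt5-positive cells, against 1.14, 0.727 and 0.564 in Krt5-negative cells, and its log2 fold change was 2.32 ± 0.17 (edgeR, adjusted p = 0.00158). It was 3.05 ± 0.25 higher in Krt15-positive, 2.49 ± 0.19 in Krt14-positive and 2.47 ± 0.13 in Trp63-positive cells. Its log2 fold change without that cluster was 1.34 in Krt5-positive, 2.03 in Krt15-positive, 1.30 in Krt14-positive and 1.59 in Trp63-positive cells. Lama3 rose by 2.01 to 2.81 and Snai2 by 1.81 to 2.37 on the log2 scale, but in the whole section Lama3 exceeded the highest blank code in 1 tumour, Snai2 in 0 and Acta2 in 2. Acta2, smooth muscle actin, rose by 0.57 to 1.04, and Mylk, myosin light chain kinase, by 0.64 to 1.46. Without the cluster Acta2 was called in 0 of the 4 comparisons by edgeR, at an unadjusted p under 0.05 in 2, and Mylk was called in 1, Trp63-positive cells.
Lama5 and Tnc were the exceptions. Lama5, a laminin chain of another basement membrane isoform, was lower in Trp63-positive cells (-0.48 ± 0.11). Tnc, the matrix glycoprotein tenascin C, was higher in Krt14-positive cells (1.39 ± 0.22) and lower in Krt15-positive cells (-0.72 ± 0.18).

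**Figure D4:**
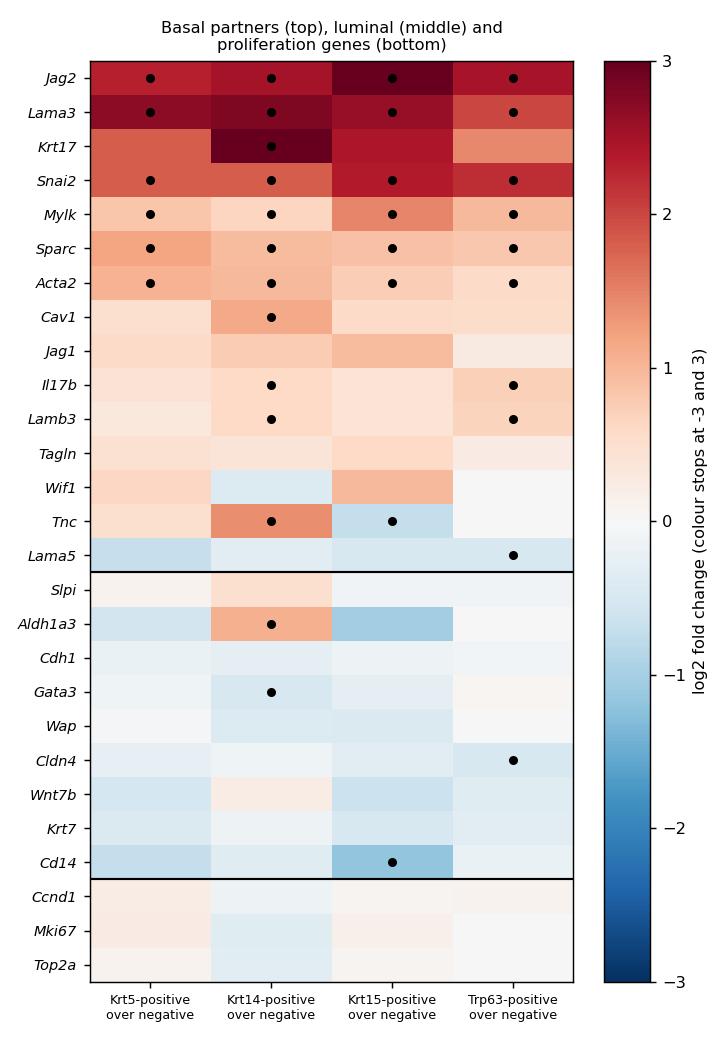
Log2 fold change (colour, which stops at 3 in either direction) of 15 basal partner, 9 luminal and 3 proliferation genes in cells positive over cells negative for each of the 4 members, with a dot where the adjusted p was under 0.05. Jag2, Lama3, Snai2, Mylk, Sparc and Acta2 carry a dot in all 4 columns, and the 3 proliferation genes carry none.

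The luminal and proliferation lists had few genes on the panel and few calls. Of 26 luminal genes listed, 9 were on the panel, and 0, 2, 1 and 1 were called in Krt5-, Krt14-, Krt15- and Trp63-positive cells. With 6.61% to 14% of all genes called higher and 1.17% to 14% lower, these counts lie near the share over all genes. By edgeR 0 were called in Krt5-positive cells by edgeR, with Cd14 (-0.71 ± 0.17) and the simple epithelial keratin Krt7 (-0.43 ± 0.14) the 2 at an unadjusted p under 0.05. In Krt14-positive cells Aldh1a3, an aldehyde dehydrogenase of luminal progenitors, was 1.07 ± 0.17 higher, and Gata3, a luminal transcription factor, was lower (-0.48 ± 0.13). Cd14 was lower in Krt15-positive cells (-1.18 ± 0.22) and the tight junction gene Cldn4 in Trp63-positive cells (-0.49 ± 0.07). Aldh1a3 exceeded the highest blank code in 2 of 3 sections. Aldh1a3 and Cldn4 were also called in these comparisons without the Lama3- and Jag2-led cluster, and Gata3 and Cd14 were not. Mki67, Top2a and Ccnd1 were called in none of the 4 comparisons by edgeR, and Mki67 had an unadjusted p under 0.05 in 1 of them, Krt14-positive cells (-0.37 ± 0.13, edgeR adjusted p = 0.0762).
Gata3 was present in cells with the basal genes. It stood at 41.4, 41.4 and 30.8 transcripts per 1000 in Krt5-positive cells, against 38.8, 55.1 and 27.4 in Krt5-negative cells, and the arms overlapped.

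Further genes changed with each member, and some are on the lists above. In Krt5-positive cells the larger rises among other genes above the highest blank in all sections included, after Jag2, Postn (1.93 ± 0.31), Sparc (1.18 ± 0.18) and the regulatory myosin light chain Myl9 (0.97 ± 0.20). The immediate early gene Nr4a1 fell by 0.79, Thbs1, thrombospondin, by 0.78 and Clu, clusterin, by 0.73 on the log2 scale.
In Krt14-positive cells the keratin Krt17 had the largest rise apart from the members (2.98 ± 0.72). It stood at 4.65, 19.3 and 11.4 per 1000 in Krt14-positive cells, against 0.805, 0.434 and 4.16 in Krt14-negative cells, and tumour 3 was highest among the negative arms. Jag2, Postn (1.98 ± 0.26) and Tnc were also among the larger rises, and the lowest were Arg1, arginase (-1.49 ± 0.17), Bglap3 (-1.23 ± 0.22) and the interferon regulatory factor Irf7 (-1.12 ± 0.15).
Krt15-positive cells had higher Cdkn1c, a cyclin-dependent kinase inhibitor (1.95 ± 0.30), Mylk, Myl9 (1.03 ± 0.22) and the growth factor Pdgfa (0.94 ± 0.22). Their lowest genes were Nr4a1 (-1.27 ± 0.20), Atf3 (-1.21 ± 0.22) and Cd14. In Trp63-positive cells Postn (1.12 ± 0.20), Mylk (0.98 ± 0.11), the secreted protein Dkk3 (0.92 ± 0.19) and Myl9 (0.84 ± 0.17) were higher, while Arg1 (-1.16 ± 0.11), Nr4a1 (-0.81 ± 0.07) and the interferon-stimulated Isg15 (-0.72 ± 0.14) were lower.
Fewer of these were called without the Lama3- and Jag2-led cluster. Of the genes named here for Krt5-positive cells Jag2 alone was called, and for Krt14-positive cells Jag2, Tnc, Arg1 and Irf7, while Krt17 was not (2.78 ± 0.85, edgeR adjusted p = 0.102). For Krt15-positive cells Nr4a1 was called, and for Trp63-positive cells Mylk, Dkk3, Arg1, Nr4a1 and Isg15.
Fibroblast markers moved with these changes. Of the 10 on the panel, 4, 3, 1 and 5 were called higher in Krt5-, Krt14-, Krt15- and Trp63-positive cells, and 0 lower. Over all genes 6.61%, 14%, 6.61% and 8.95% were called higher, so the count in Krt15-positive cells lay near that share. Their sum ranged from 68.5 to 87.5 per 1000 in Krt5-positive cells, against 29.6 to 45.3 in Krt5-negative cells. It ranged from 47.9 to 90.5 in Krt14-positive, 54.3 to 65.6 in Krt15-positive and 52.3 to 63.0 in Trp63-positive cells, against 32.0 to 48.1, 32.0 to 50.7 and 32.3 to 49.6 in their negative cells. No fibroblast marker was at 0 in any comparison. Markers of immune cells moved in fewer cases. In Krt14-positive cells 3 of 8 myeloid and 2 of 8 T or NK markers were called higher. The myeloid sum was 7.09 to 7.75 per 1000 in Krt14-positive cells, against 6.33 to 7.86 in Krt14-negative cells, and the T or NK sum was 1.55 to 1.80, against 1.41 to 1.54. In Krt15-positive cells 1 myeloid marker was called lower, and in Trp63-positive cells 1 myeloid marker was called higher and 1 T or NK marker lower. These single calls lie near the shares over all genes, which were 5.84% lower in Krt15-positive cells and 8.95% higher and 8.56% lower in Trp63-positive cells. The part of these markers in the changes was not tested.

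Cells positive for a single member differed in what else they expressed. Unlike above, such cells here held no transcript of the other members, and levels are per 1000 panel transcripts other than the 4 members. These genes were chosen after their values had been seen and are given without a test. Cells with Krt14 alone held 4.17, 7.86 and 14.4 Krt17 transcripts per 1000 in tumours 1, 2 and 3, whereas cells with Krt5 alone held 1.08, 0.757 and 2.86. Of the Krt14-only cells, 13.7%, 10.5% and 78.2% belonged to the cluster led by Krt17 and Aldh1a3. That cluster held 3.50%, 3.82% and 24.5% of the cells with none of the members. Its share was thus larger among Krt14-only cells in every tumour. The median depth of Krt14-only cells in tumour 3 was 200 panel transcripts, against 127 and 133 in tumours 1 and 2. Their Aldh1a3 level in tumour 3 was 3.53 against 1.07 and 1.38. In that tumour 18% of them lay within 25 µm of a fibroblast-like cell, against 51.8% and 47.7% in the other two.
Of the Trp63-only cells of tumour 2, 43.0% lay in the cluster led by Dll1, a Notch ligand, against 12.1% and 11.2% in tumours 1 and 3. That cluster held 11.8%, 38.9% and 14.2% of the cells with none of the members, close to these shares. Per 1000 of all panel transcripts, Trp63 itself stood at 1.52, 2.06 and 1.01 in that cluster. It stood at 1.05, 1.35 and 0.732 in all epithelial-like cells outside the Lama3- and Jag2-led cluster. Krt15-only cells lay for 25.4%, 6.54% and 54.4% in the cluster led by Wif1, a secreted Wnt inhibitor, and Top2a. This cluster held 12.8%, 1.42% and 9.95% of the cells with none, so its share was larger among Krt15-only cells in every tumour. None of these cluster shares was matched for depth. Median panel transcripts were 85, 95 and 85 in cells with none and 127, 133 and 200 in Krt14-only cells. They were 131, 153 and 150 in Trp63-only and 123, 143 and 133 in Krt15-only cells. The Dll1-led cluster was shallow, at 58, 79 and 53. Cells with 3 or 4 members held 15.4, 13.4 and 9.28 Jag2 transcripts per 1000, against 0.928, 0.633 and 0.580 in cells with none, and 68.0%, 76.3% and 62.2% of them belonged to the Lama3- and Jag2-led cluster.

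Epithelial-like cells close to fibroblast-like cells held more of the members. Within 10 µm of a fibroblast-like cell centre, Krt5 stood at 13.9, 8.13 and 11.8 transcripts per 1000 in tumours 1, 2 and 3, and between 75 and 150 µm it stood at 3.54, 1.29 and 1.04. Trp63 stood at 1.54, 2.43 and 1.21 within 10 µm and at 0.649, 0.778 and 0.521 between 75 and 150 µm. Over the 6 bins up to 150 µm, the level was lower in each farther bin in every tumour for all 4 members. Krt15 in tumour 2 lay below the highest blank code in every one of these bins, at 0.369 against 0.449 within 10 µm. Between 75 and 150 µm Krt15 lay below it in tumours 1 and 3 too, at 0.403 and 0.314 against 0.444 and 0.368. The mean blank code did not decline in the same way, at 0.193, 0.179 and 0.227 within 10 µm and 0.196, 0.181 and 0.175 between 75 and 150 µm.
Cells with a fibroblast-like cell within 25 µm were then set against cells with none within 75 µm. Krt5 stood at 10.7, 5.76 and 8.63 near and at 3.54, 1.17 and 1.0 far, without overlap. Krt5 was 2.30 ± 0.28, Krt15 1.52 ± 0.17 and Trp63 1.23 ± 0.17 higher near them (edgeR quasi-likelihood test, adjusted p = 0.0104 for each). Krt15 stood at 1.02, 0.333 and 1.27 near and at 0.403, 0.140 and 0.305 far, with overlap. Its far values lay below the highest blank codes of 0.444, 0.456 and 0.366, and its near value in tumour 2 lay below that of 0.386. Krt14 stood at 2.66, 2.69 and 1.91 near and at 1.28, 0.475 and 1.07 far, without overlap, but its log2 difference of 1.42 ± 0.39 missed the threshold (adjusted p = 0.0551). The call on Krt14 changed with the scaling, at an adjusted p of 0.0282 by library size. So 3 of 4 members were called higher, where 12.4% of genes were called higher and 9.69% lower. Without tumour 1, Krt15 and Trp63 were not called (adjusted p = 0.0743 and 0.0810) and Krt5 was (2.70 ± 0.29).
Fibroblast markers moved with this comparison too, and their part in it was not tested. Of 10, 8 were called higher, and their sum was 64.2 to 75.2 per 1000 near, against 12.8 to 17.8 far. Without the Lama3- and Jag2-led cluster the differences were 1.68 ± 0.25 for Krt5, 1.21 ± 0.17 for Krt15 and 1.08 ± 0.16 for Trp63, all 3 called, and 0.90 ± 0.36 for Krt14, not called. In that fit 26 of 258 genes were called higher and 29 lower.

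**Figure D5:**
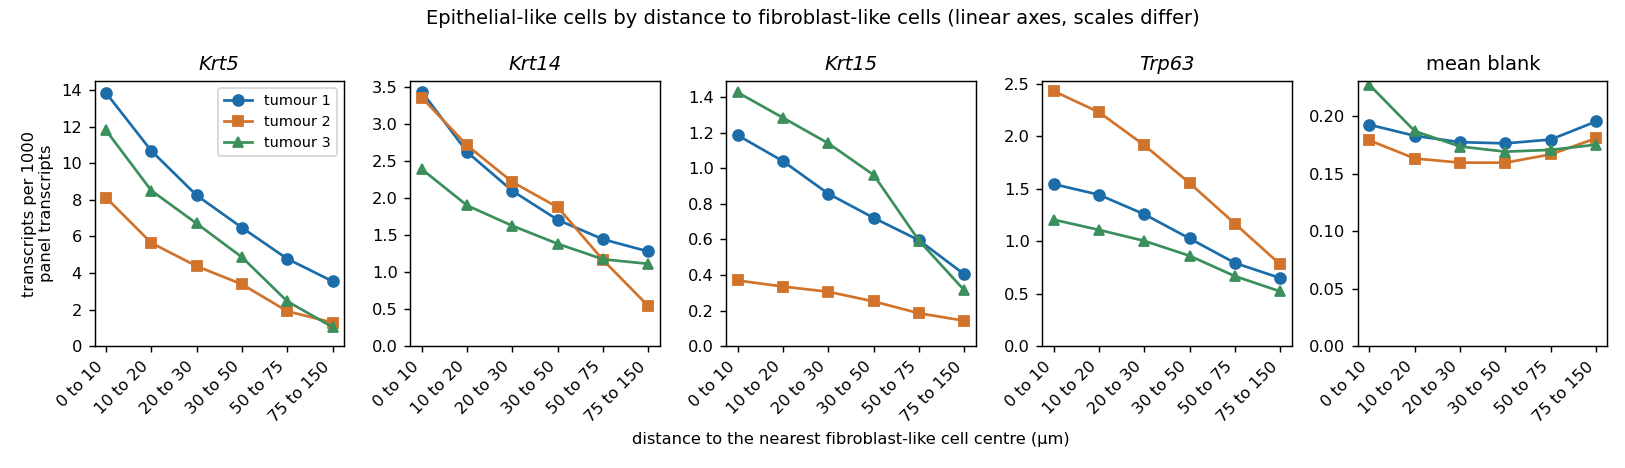
Levels of the 4 members and the mean blank code in epithelial-like cells, in transcripts per 1000 panel transcripts (linear axes with different scales), by distance to the nearest fibroblast-like cell centre in µm, with 1 line per tumour. Krt5 declines over the bins to 3.54, 1.29 and 1.04 at 75 to 150 µm, and the mean blank stays between 0.160 and 0.227.

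Toward the edge of the tissue, tumour 2 stood apart. Its Krt14 level was 5.03, 6.66, 5.28, 3.30, 1.32 and 1.07 at 0 to 50, 50 to 150, 150 to 300, 300 to 500, 500 to 1000 and over 1000 µm from the edge. Tumour 1 ran over the same bins between 4.25 at the edge and 1.89 in the interior, and tumour 3 between 2.71 at 50 to 150 µm and 1.24 in the interior. Krt15 did not share one direction, since it was 0.627 at the edge and 0.172 beyond 1000 µm in tumour 2 but 0.362 and 0.941 in tumour 3. Of these values only 0.941 lay above the highest blank code of its bin and tumour, which in the same order was 1.24, 0.353, 0.709 and 0.341. The mean blank code was 0.288 ± 0.013 at the edge and 0.165 ± 0.007 beyond 1000 µm (SD, n = 3), so false reads too were more frequent there.

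Positive cells lay near other positive cells. Of the epithelial-like neighbours within 15 µm of a Krt5-positive cell, 32.9%, 28.4% and 44.1% were Krt5-positive. On the log2 scale this was 1.57, 2.30 and 2.65 above the share in all epithelial-like cells, and it was 1.05, 1.65 and 2.46 at 30 to 60 µm, beyond touching cells. The same measure within 15 µm averaged 2.55 ± 0.69 for Krt14, 4.01 ± 1.35 for Krt15 and 1.74 ± 0.32 for Trp63 (SD, n = 3). Leaving out the Lama3- and Jag2-led cluster, it averaged 2.23 ± 0.62 for Krt5, 2.63 ± 0.79 for Krt14, 3.88 ± 1.19 for Krt15 and 1.64 ± 0.18 for Trp63.
Blank codes clustered in space as well. For a blank code and the same code in neighbours within 15 µm, the value was 3.64, 3.04 and 5.45, higher than that of Krt5, Krt14 or Trp63 except for Krt14 in tumour 2 (3.30). Krt15, at 2.97, 5.53 and 3.52, was above the blank code in tumour 2 alone. Single cells held up to 70, 159 and 129 transcripts of 1 blank code. At 30 to 60 µm the same held, with Krt15 at 4.02 and Krt14 at 2.69 in tumour 2, against 1.79 for the blank code. So apart from Krt14 and Krt15 in tumour 2, this log2 ratio was not above that of blank codes. Its ceiling is lower for a more frequent gene. Krt5-positive cells were 11.1%, 5.78% and 7.01% of all epithelial-like cells, and blank codes averaged 0.0854% and 0.117% in tumours 1 and 2. The ratio therefore cannot decide whether members clumped more than blank codes. The same blank code was found in 1.07%, 0.957% and 3.54% of neighbours within 15 µm, well below the share for Krt5. The part of transcripts given to a neighbouring cell was not tested.
Cells positive for 2 or more members lay mostly alone or in small groups. Linked at 15 µm, 33.2%, 41.1% and 29.5% of them stood alone, 12.6%, 21.1% and 28.8% lay in patches of 10 or more, and the largest patch held 48, 285 and 337 cells.

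Across tiles of 100 µm, the members also followed each other. Over 4815, 6391 and 6606 tiles, Spearman's rho between Krt5 and Krt14 was 0.79, 0.68 and 0.33, and between Krt5 and Trp63 it was 0.59, 0.42 and 0.46. For Krt14 with Trp63 it was 0.57, 0.52 and 0.36. Pairs with Krt15 were weak in tumour 2. Krt5 with Krt15 gave 0.59, 0.22 and 0.48, Krt15 with Trp63 0.48, 0.18 and 0.41, and Krt14 with Krt15 0.54, 0.21 and 0.14. Tiles of a section share tissue and are not independent, and rho is given as a description. Of the other panel genes above background, Jag2 was most like Krt5 (mean rho over 3 tumours 0.55), Trp63 (0.49) and Krt15 (0.38), and Lamb3, the beta chain of the same laminin as Lama3, was most like Krt14 (0.47). After these came Postn (0.44) for Krt5, Jag2 (0.45) and Krt17 (0.44) for Krt14, Wif1 (0.36) for Krt15 and Tcf7l2 (0.39) for Trp63. Blank codes ranged from -0.12 to 0.09. Lama5 was the least like Krt5 (-0.40) and Trp63 (-0.38). The richest 10% of tiles held 39.2%, 52.7% and 66.9% of Krt5 transcripts and 29.4%, 31.2% and 34.3% of Trp63 transcripts, and for blank codes the median was 27.3%, 35.8% and 31.7% with a highest of 36.5%, 54.1% and 79.0%.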

How the data were processed

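The authors deposited, for each of 3 MERSCOPE sections, raw counts of decoded transcripts per segmented cell and a table of cell positions and volumes; the software for decoding and segmentation was not given. Scanpy 1.9.3 stands without a role in the submitters' processing notes. The design text speaks of 265 genes and the deposited counts hold 258 genes and 27 blank codes. Position units are not stated in the file headers and were read as µm. Cells with under 20 panel transcripts, or with a volume under 50 or over 3 times the median, were left out. The cells were clustered without the 4 members (scikit-learn 1.9.0 and leidenalg 0.10.2, 20000 cells per section, 30 components, 15 neighbours, Leiden resolution 1). A logistic regression fitted on these cells then assigned every cell to a cluster, and it returned 85.9% of the clustered cells to their own cluster.

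Counts were summed per tumour and arm and tested with edgeR 4.0.16 (R 4.3.3; quasi-likelihood test, TMM scaling, tumour as a block) over all 257 or 258 genes, with Benjamini-Hochberg adjusted p under 0.05 as the threshold. The block pairs arms by construction, since both come from the same section. With n = 3, p-values set the mean difference between arms against how that difference varied over these tumours, with dispersion estimates that borrow from all genes. A level is a gene's count per 1000 panel transcripts unless stated otherwise, and its error is the SD over tumours. Named genes were the 5 largest and 3 smallest changes among called genes above the highest blank code in all sections; a gene named by this rule is not reported here. The members and gene lists were chosen with earlier results of these data known, and the alternatives without the Lama3- and Jag2-led cluster and matched within clusters were chosen after seeing the data. DESeq2 1.42.0, other thresholds, scalings, filters, clusterings and left-out tumours were alternatives. The fits were tested on simulated counts.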

Additional observations from a re-analysis of the deposited data

How the results depend on the processing

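With each tumour left out, the other members called in Krt5-positive cells were 0 to 3 of 3, those called near fibroblast-like cells 1 to 4 of 4, and those called in the other cell classes 0 to 4 of 16. The same range was 3 to 3 for Krt14-positive, 3 to 3 for Krt15-positive and 2 to 3 for Trp63-positive cells. Over the same fits, 0 to 32 of 257 genes were called higher in Krt5-positive, 33 to 56 in Krt14-positive, 7 to 31 in Krt15-positive and 4 to 10 in Trp63-positive cells. Those called lower were 0 to 23, 22 to 27, 0 to 18 and 0 to 5. Near fibroblast-like cells 4 to 39 of 258 were called higher and 0 to 15 lower, and in the other classes 26 to 105 and 22 to 79. Without the tumour as a block (no replicate block), 1 of 3 members was called in Krt5-positive cells, 1 of 4 near fibroblast-like cells and 0 of 16 in the other classes. Of all genes, 6, 13 and 32 to 103 were called higher there, and 0, 0 and 5 to 65 lower. Among the other classes DESeq2 called 6 member values, where 49 to 107 of 258 genes were called higher and 73 to 101 lower. Clustering at resolution 2 called 7, where 66 to 99 were called higher and 66 to 101 lower. In fibroblast-like cells resolution 2 called 3 of 4 members higher than in epithelial-like cells, where 99 of 258 genes were called higher and 85 lower. In Il17b- and Acta2-led cells it also called 3 of 4 higher, where 71 genes were called higher and 69 lower. Fibroblast-like cells then made up 10.3%, 11.6% and 8.33% of cells in tumours 1, 2 and 3. The shares of positive cells among fibroblast-like cells given above are those of resolution 1. Resolution 2 also turned 3 directions that were uncalled at resolution 1: Krt15 in Il17b- and Acta2-led cells was 0.68, Krt5 in fibroblast-like cells 1.42 and Krt14 in fibroblast-like cells 0.95. The cause was not tested. The median co-occurrence of member pairs, 2.54 on the log2 scale, was 0.81 at 1 or more transcripts, 3.49 at 3 or more and 1.44 within cluster and depth bin. Pairs of blank codes averaged 0.17, 6.25 and 1.40 in the same settings, and the cause was not tested. This ratio has a lower ceiling for more frequent genes, so member and blank pairs are not on a like scale. The mean share of cells with 2 or more members, 2.57%, was 10.2% at 1 or more transcripts, 1.29% at 3 or more, 1.29% without the Lama3- and Jag2-led cluster and 0.861% after thinning. The mean neighbour ratio, 2.37 on the log2 scale, was 1.81 at 30 to 60 µm, 1.05 at 1 or more transcripts and 3.15 at 3 or more. All 212 alternative values of members between positive and negative cells and between near and far cells kept their direction, and 192 passed the threshold. The number of all genes called moved by more than 1.5 times: 20 (0 to 93 over the alternatives) in Krt5-positive, 72 (8 to 124) in Krt14-positive, 32 (7 to 71) in Krt15-positive, 45 (4 to 72) in Trp63-positive and 57 (4 to 142) in near cells. At a median of about 100 transcripts a cell, a cell without a member's transcripts cannot be called negative for its RNA.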
